A study of Mus musculus with 2 samples.

Results

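Mitochondrial ribosomal proteins were described in PGK12.1, a female mouse embryonic stem (ES) cell line, before differentiation and after 15 days of embryoid body differentiation. Members were the genes whose symbol starts with Mrpl, for the large ribosomal subunit, or Mrps, for the small subunit, followed by a number. Of 18193 genes measured on the arrays, 76 were members, 47 of them Mrpl and 29 Mrps. Mrpl30 and Mrpl53 had no probe set that names 1 gene alone and did not enter.

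The stated aim of the study was to follow X-linked expression while a cell with a pair of active X chromosomes becomes one with a single active X. Each condition had 1 array of total RNA, so the spread between cultures is unknown, the conditions cannot be tested against each other, and every difference is given by its size alone. The founding blastocysts had a 129 mother and a (129 X PGK)F1 father, and the line is the sole one studied. Undifferentiated cells were kept with leukemia inhibitory factor on mouse embryonic fibroblast feeders, which were removed by adhesion to gelatin before the cells were collected or differentiated. The labels name no transgene and no drug for either condition. In a bulk sample, fewer cells of a type and less RNA per cell cannot be told apart.

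The mitochondrial ribosome is built inside mitochondria from RNAs of the mitochondrial genome and from proteins that are encoded in the nucleus, made in the cytosol and imported. It translates the few proteins of the mitochondrial genome, all of them core subunits of the respiratory chain and of ATP synthase. Many of its proteins have a counterpart in the bacterial ribosome, and others were added during the evolution of mitochondria.

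Values are the deposited signal of the probe set that represents each gene, and the log2 difference is log2(signal + 16) at day 15 minus that in undifferentiated cells. A gene was called at least 2-fold or at least 1.5-fold higher or lower on this log2 scale, and a fold printed beside signals is their plain ratio, without the added 16. All genes whose mean log2 value reached the median of all probe sets, 11960 in number, formed the background, and all 76 members were among them. Signals of different probe sets are not levels that can be set against each other, so only differences between the arrays are compared.

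Most mitochondrial ribosomal protein genes were moderately lower at day 15. Of the 76, 66 had a log2 difference below 0 (86.8%), against 50.0% of all genes above the filter. This count was 59 of 76 with the dimmest probe set of each gene above the filter. Without probe sets of the suffix a, s or x, 61 members remained and 49 of them were below 0. The median log2 difference of the members was -0.47 and that of all genes 0.00052. At least 1.5-fold lower were 31 members (40.8%), against 21.0% of all genes, and at least 1.5-fold higher was 1 member, against 26.2%. At least 2-fold lower were 6 members (7.89%), near the background of 8.41%, but this count depends on the scaling. Scaled on the hybridization controls it was 29 (38.2%, against 18.8% of all genes), and quantile normalization gave 3 (3.95%, against 11.4%). In the deposited scaling 0 members were at least 2-fold higher, against 16.5%.

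The members were also read against the 4627 genes whose mean signal lay within their own range. In those genes 58.8% had a log2 difference below 0 and the median was -0.17. There, 27.9% were at least 1.5-fold lower, 19.1% at least 1.5-fold higher, 11.5% at least 2-fold lower and 11.2% at least 2-fold higher. The members' median lay 0.30 below the median of these genes. Scaling on the bacterial hybridization controls, 18 probe sets of spiked RNA, shifted the median of all genes to -0.36 and that of the members to -0.86. On that scale 74 of 76 members were below 0 and only Mrpl33 and Mrps6 were above it.

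**Figure D1:**
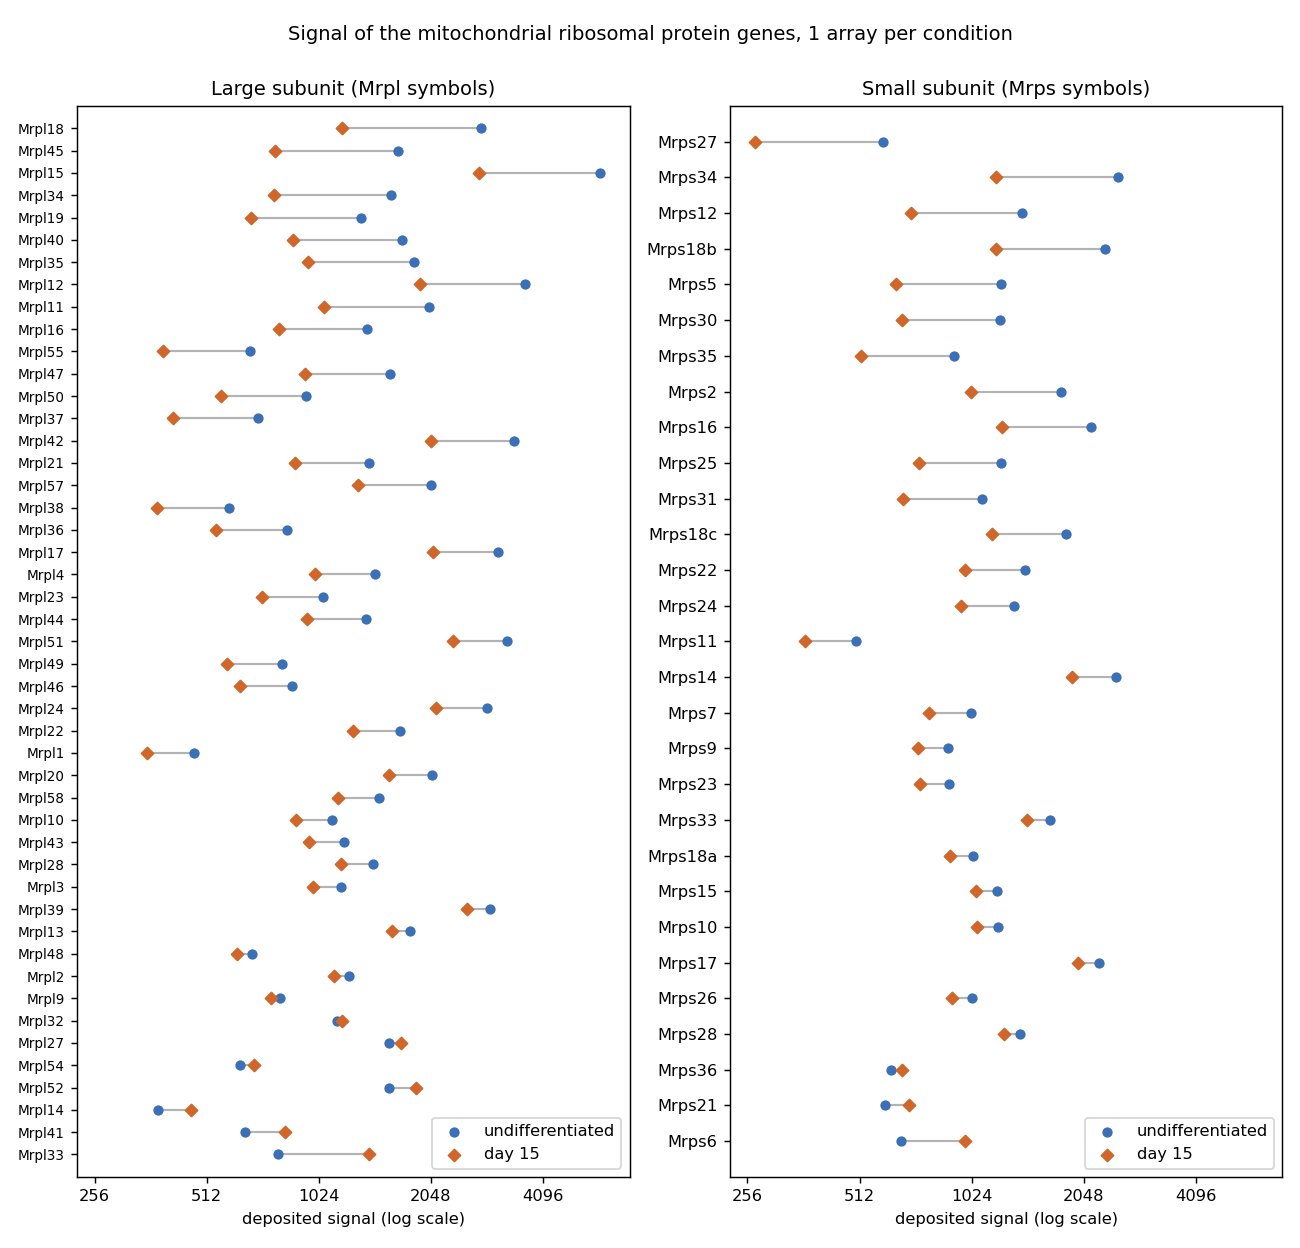
Deposited signal of every mitochondrial ribosomal protein gene on the undifferentiated array (circles) and the day 15 array (diamonds), on a log axis, sorted by log2 difference within the large (left) and small (right) subunit. Mrpl18 and Mrps27 head their columns with the largest losses, and 7 Mrpl and 3 Mrps genes at the bottom have the day 15 point to the right (2 genes in all, Mrpl33 and Mrps6, with scaling on the hybridization controls).

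Large and small subunit genes had nearly the same distribution. The median log2 difference was -0.48 over the 47 Mrpl genes and -0.44 over the 29 Mrps genes, a gap of -0.044 that turned to 0.056 with the mean over probe sets and to 0.051 with the dimmest probe set above the filter, and the means were -0.46 and -0.47. The SD over genes was 0.43 in the large and 0.41 in the small subunit, far wider than the gap between the medians. Below 0 were 40 of 47 Mrpl and 26 of 29 Mrps genes, and at least 1.5-fold lower were 19 and 12. The ranges overlapped almost wholly, from -1.23 (Mrpl18) to 0.80 (Mrpl33) and from -1.09 (Mrps27) to 0.56 (Mrps6).

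Some members sit elsewhere than their symbol says. Mrps18a and Mrps30 are proteins of the large subunit in structures of the mammalian ribosome, and Mrps36 is now known as a subunit of the 2-oxoglutarate dehydrogenase complex. Mrps30 read 1217.3 in undifferentiated cells and 664.9 at day 15, and Mrps18a 1033.1 and 898.1. Mrps36 read 621.7 and 666.7, and was 1 of the 3 Mrps genes above 0. With genes placed by location, the large subunit median over 49 genes was -0.48 and the small subunit median over 26 genes was -0.46.

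The 6 members at least 2-fold lower were 4 large and 2 small subunit genes. Mrpl18, which binds 5S rRNA and is known for its part in the import of that RNA into mitochondria, read 2798.8 in undifferentiated cells and 1183.7 at day 15, a 2.36-fold loss. Mrps27, a pentatricopeptide repeat protein of the small subunit, read 591 and 268.6 (2.20-fold). Mrpl45, which lies beside the exit tunnel and attaches the ribosome to the inner membrane, read 1674.3 and 780.6 (2.14-fold). For Mrpl15 the signals were 5832.4 and 2762.9 (2.11-fold), for Mrps34 2524.1 and 1192 (2.12-fold), and for Mrpl34 1599.7 and 777.6 (2.06-fold). The 6 losses were close to each other in size, from 2.06-fold to 2.36-fold.

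The next members fell just short of the 2-fold call. Mrps12, the counterpart of the bacterial decoding-site protein S12, read 1400.8 and 702.6, a log2 difference of -0.98, against -1.03 for Mrpl34 just inside. Mrpl19 followed at 1332.7 and 671.3, Mrps18b at 2339.9 and 1187.1, and Mrpl40 at 1711.3 and 874. These 10 genes had log2 differences from -1.23 to -0.96, and belong to no single part of the ribosome.

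The 10 members above 0 had modest gains, and 8 of them were below 0 with scaling on the hybridization controls, all but Mrpl33 and Mrps6. Mrpl33 had the largest, with signals of 794.9 and 1394.8 (1.75-fold), and was the sole member at least 1.5-fold higher. Mrps6 read 661.7 and 983.1 (1.49-fold), and its second probe set read 355.3 and 505.8. Mrpl41 read 648.8 and 829.4, Mrpl14 378.4 and 465.7, and Mrpl52 1576.2 and 1868.8. Other bright probe sets of Mrpl41 (0.052) and of Mrpl52 (0.069 and 0.021) had log2 differences closer to none. Mrps21, Mrpl54, Mrpl27, Mrps36 and Mrpl32 had log2 differences of 0.21, 0.12, 0.11, 0.098 and 0.050. Mrpl32 is processed by the m-AAA protease of the inner membrane, a step on which ribosome assembly depends.

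Proteins with and without a bacterial counterpart were both lower. Large subunit genes with a counterpart had a median of -0.53 (25 of 29 below 0) and those without one -0.48 (15 of 18). Of all 26 small subunit genes by location 24 were below 0 (92.3%). The 16 genes of this subunit with a counterpart had a median of -0.38, with 14 below 0. The 9 without a counterpart had a median of -0.70, with all 9 below 0. Those 9 were Mrps22, Mrps23, Mrps25, Mrps26, Mrps27, Mrps31, Mrps33, Mrps34 and Mrps35, from -1.09 (Mrps27) to -0.17 (Mrps26). The ranges of the small subunit groups overlapped over most of their length, from -0.98 to 0.56 for the genes with a counterpart.

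Within the large subunit, the functional sites did not separate cleanly. Of the stalk proteins, which recruit translation factors, Mrpl12 read 3675.4 and 1914.2 and Mrpl11 2022.3 and 1058.2. Their log2 differences were -0.94 and -0.92. Mrpl12 is also known to bind the mitochondrial RNA polymerase. The other stalk proteins measured differed less, with Mrpl10 at 1110.7 and 888.2 and Mrpl54 at 629.4 and 685.9. All 6 proteins around the peptide exit tunnel were lower: Mrpl45, Mrpl47 (-0.75), Mrpl17 (-0.58), Mrpl23 (-0.53), Mrpl24 (-0.45) and Mrpl22 (-0.41). Of all members 86.8% were below 0. At least 1.5-fold lower were 2 of the 6 exit tunnel genes (33.3%), against 40.8% of all members. Proteins of the central protuberance ran from Mrpl18 (-1.23) and Mrpl40 (-0.96) through Mrpl55 (-0.75), Mrpl38 (-0.62), Mrpl46 (-0.45), the peptidyl-tRNA hydrolase Mrpl58 (-0.36) and Mrpl48 (-0.14) to Mrpl27 (0.11) and Mrpl52 (0.24).

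The S18 family offers a comparison among paralogs, since mammals have 3 relatives of bacterial S18. Mrps18b, in the small subunit, had the largest difference (-0.97). Mrps18c, in the position of bacterial S18, read 1836 and 1159.8 (-0.66), and Mrps18a of the large subunit had the smallest (-0.20). All 3 were lower at day 15, as were 86.8% of all members.

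**Figure D2:**
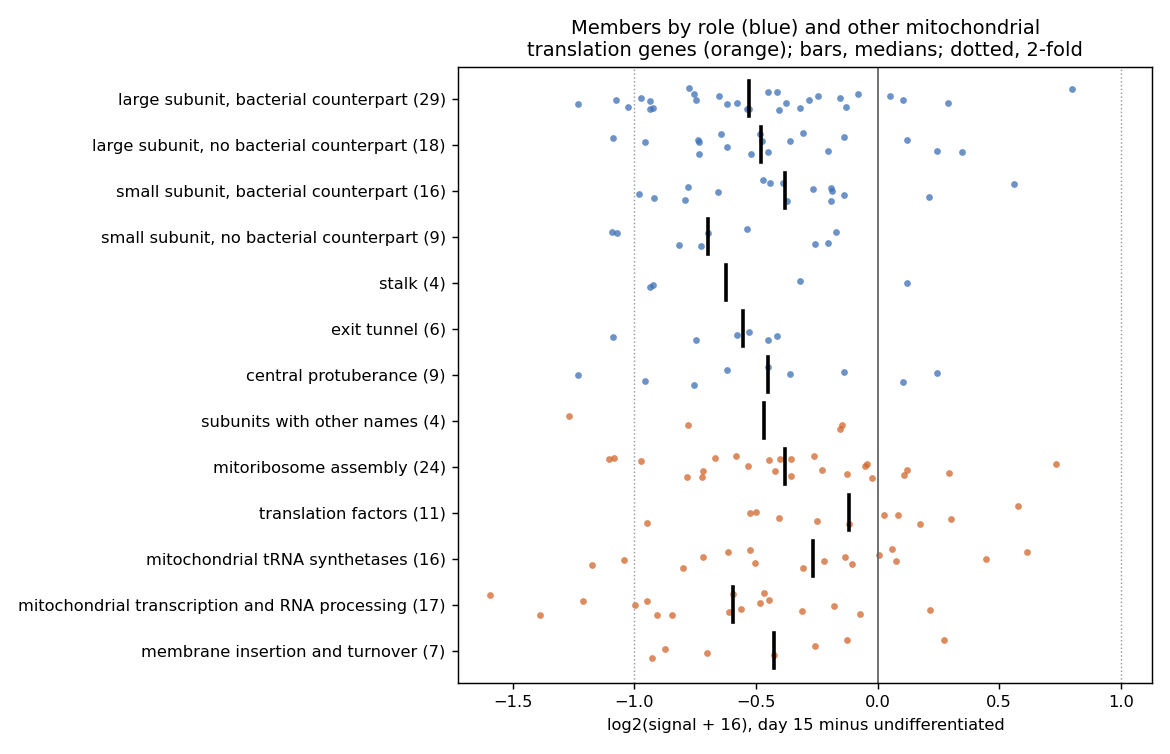
Log2 differences of members by role in the ribosome (blue) and of other genes of mitochondrial translation, RNA and DNA (orange). Each point is 1 gene, with the number of genes in parentheses, medians as bars and the 2-fold threshold as dotted lines. All 9 small subunit proteins without a bacterial counterpart and all 6 exit tunnel proteins lie left of 0, as do 66 of all 76 members. Translation factors lie on both sides.

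The only repeat measure of a member on these arrays is a further probe set for the same gene. Of the 76 genes, 42 had several probe sets, 156 in all, of which 132 lay above the filter. Among the 33 members with several above the filter, the SD of the log2 difference between probe sets of a gene was 0.34, against 0.53 over all genes. Among probe sets above the 75th percentile of signal (about 215) it was 0.17 over 23 members, against 0.35 over all genes. Of 34 bright additional probe sets, 31 had the direction of the probe set that represents the gene. This spread covers probe choice and not variation between cultures.

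A signal below 35.6 was taken as not distinct from background. This bound is the brightest signal of 15 control probe sets for the bacterial phe, thr and trpn RNAs, which were assumed to be absent. Mrpl15 had the most probe sets, 8, of which 6 lay above this bound on both arrays and were all lower at day 15. Beside the representative (-1.07), the bright ones had log2 differences of -1.20, -0.96, -0.89 and -0.75, and a dimmer one -0.63. The other probe sets read 102 and 40.5 in undifferentiated cells and were below the bound at day 15. Mrps5 (1229 and 641.8) had 5 probe sets above the filter, all lower, from -0.92 to -0.38. Of the 33 members with several probe sets above the filter, 11 had both directions (33.3%, against 30.1% of all genes with several). They were Mrpl3, Mrpl9, Mrpl13, Mrpl17, Mrpl21, Mrpl27, Mrpl34, Mrpl48, Mrpl51, Mrpl57 and Mrps23. The number is 9 without Mrpl3 and Mrpl34, where the probe set that differs was below the bound on 1 array. Above the 75th percentile 3 of 23 members were left (13.0%, against 20.9% of all genes). They were Mrpl9, Mrpl13 and Mrpl48, whose representative differences of -0.080, -0.15 and -0.14 were all close to 0. The second probe set of Mrpl34 read 33.4 and 45.4, around the bound, and that of Mrpl33 24 and 8.3, below it, so the values of both genes rest on 1 probe set.

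**Figure D3:**
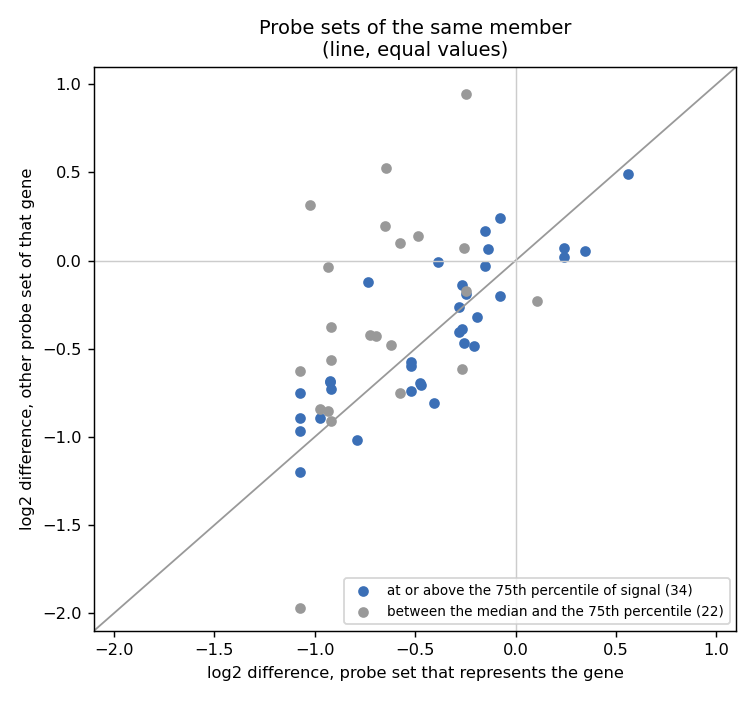
Log2 difference of each additional probe set of a member against that of the probe set that represents the gene, for 34 bright (blue) and 22 dimmer (grey) additional probe sets above the filter, with the line of equal values. Blue points mostly follow the line, and the points farthest from it are mostly grey. Some blue points also lie off it, such as Mrpl50 (-0.12, representative -0.74) and Mrpl1 (-0.81, representative -0.41).

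The members differed from the related gene families in the size of their losses. The median of 46 cytosolic ribosomal protein genes above the filter was -0.13, with 41 below 0 but 2 at least 1.5-fold lower. Nuclear genes for subunits of oxidative phosphorylation (OXPHOS), the complexes whose mitochondrially encoded cores this ribosome makes, had a median of -0.042, with 45 of 79 below 0 and 5 at least 1.5-fold lower. Against these shares of 4.35% and 6.33%, the 40.8% of members at least 1.5-fold lower was the highest. The order of these medians held under each alternative scaling, filter, pseudocount and probe set choice tried, with the OXPHOS median at 0.067 after quantile normalization. Cytosolic ribosomal protein signals had a median of 13097 in undifferentiated cells, where the highest signal among genes above the filter was 17939. Whether such bright signals were compressed was not tested.

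**Figure D4:**
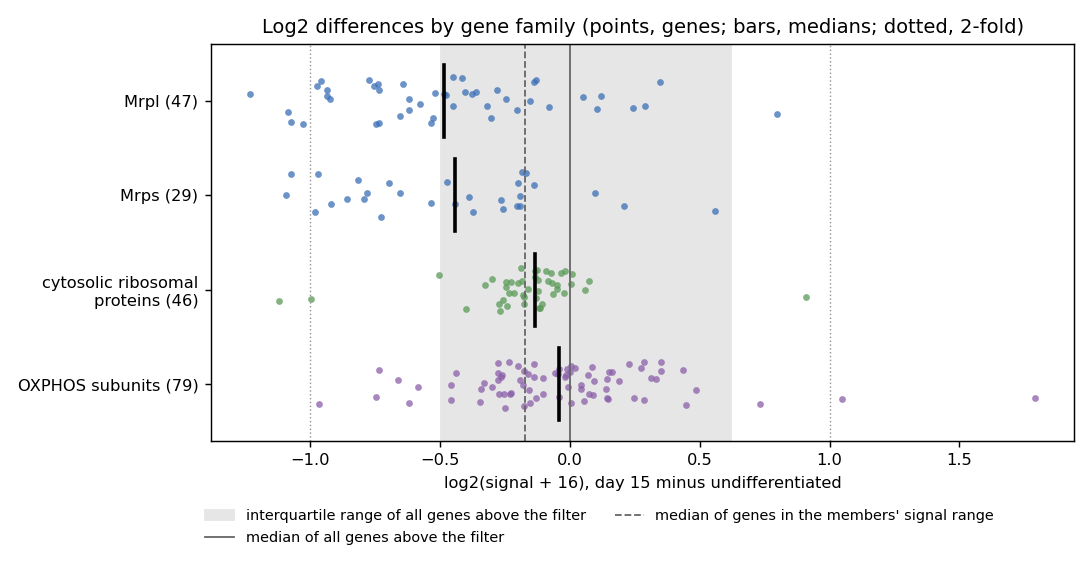
Log2 differences of Mrpl, Mrps, cytosolic ribosomal protein and OXPHOS subunit genes, 1 point per gene above the filter, with medians as bars, the interquartile range of all genes as a grey band, and the medians of all genes (solid line) and of genes in the members' signal range (dashed line). The bars of Mrpl (-0.48) and Mrps (-0.44) lie left of both lines, and those of the cytosolic ribosome (-0.13) and OXPHOS (-0.042) between them.

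Proteins of the mitochondrial ribosome whose names do not follow the Mrpl and Mrps scheme were lower as well. Gadd45gip1, a large subunit protein also known as CRIF1, read 1103.4 and 448.2, a log2 difference of -1.27. Ptcd3, a pentatricopeptide repeat protein at the messenger RNA entry, read 1596.7 and 925.2 (-0.78). Dap3, the GTP-binding protein of the small subunit, read 1815.4 and 1640.9, and Chchd1 2111.5 and 1894.2. All 4 measured proteins of this kind were below 0, as were 86.8% of the Mrpl and Mrps genes.

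Gene lists for building and supplying the mitochondrial ribosome, and for mitochondrial RNA and DNA, had medians from -0.59 to -0.26. Their counts stand against 50.0% of all genes below 0 and 21.0% at least 1.5-fold lower, or 58.8% and 27.9% of genes in the members' signal range. Of 24 assembly factors above the filter 20 were below 0 and 7 (29.2%) at least 1.5-fold lower (median -0.38), the latter share near that of the signal range. They included the ribosomal RNA methyltransferases Mrm3 (342.5 and 150.8) and Mrm2 (317.4 and 141.2), both at least 2-fold lower, and the pseudouridine synthase gene Rpusd4 (321.5 and 156.2), while Mettl15 was higher (99.8 and 176.5). Of 17 genes of mitochondrial transcription, RNA processing and DNA replication 16 were below 0 and 9 (52.9%) at least 1.5-fold lower (median -0.59). The replication genes in this list were Twnk, Polg, Polg2 and Ssbp1. Prorp, the catalytic subunit of mitochondrial RNase P, read 660.6 and 208.3, the helicase gene Twnk 590.1 and 215.9, the tRNA 3' processing enzyme gene Elac2 680.5 and 285.3, and Tfam, which packages mitochondrial DNA, 2113.5 and 1051.1. Among 16 mitochondrial aminoacyl-tRNA synthetases the median was -0.26, with 11 below 0 and 5 (31.2%) at least 1.5-fold lower, again near the signal range share, led by Tars2 (715.1 and 308.1) and Aars2 (205.7 and 91.6), with Sars2 (224.8 and 122.4) next and Wars2 higher (88 and 143.1).

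Of 11 translation factors 6 were below 0 (54.5%), near the 50.0% of all genes. Their median of -0.12 was unstable: it was -0.42 with quantile normalization, -0.41 above the 75th percentile of signal, -0.47 when scaled on the hybridization controls and 0.027 as the mean over probe sets. Gfm2, which splits the ribosome after termination, read 530.8 and 267.2 and was the single factor at least 1.5-fold lower. The elongation factors Tufm (1035.3 and 728.4) and Tsfm (460.3 and 315.6) were lower, Mtres1 (527.1 and 793.4) was higher, and the recycling factor Mrrf (520.8 and 530.9) hardly differed. Of 7 genes for membrane insertion and protein turnover 6 were below 0 (median -0.42), among them the inner membrane protein gene Letm1 (460.2 and 234.3), the protease subunit Clpp (2167.8 and 1174.6), and Afg3l2 of the m-AAA protease (849.3 and 516.7), whose partner Spg7 was above 0 (224.1 and 274.2).

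Transcription factors and coactivators of mitochondrial genes differed in both directions. Nrf1, which binds the promoters of many such genes, read 554.9 and 269.7, a 2.06-fold ratio that the added 16 brings just short of the 2-fold call. The coactivator Pprc1 read 2474.2 and 1141.7 and Mycn 4424.6 and 1250.6, both at least 2-fold lower. Gabpa, the ETS-family subunit of the factor GABP, read 1601.3 and 1416.7, its partner Gabpb1 379 and 408.7, Yy1 5844.3 and 5252.7, and Myc 702.2 and 611.9. Esrra was higher (175.1 and 314.1), as was the coactivator Ppargc1b (22.5 and 65.7, at least 1.85-fold). Ppargc1a read 29.3 and 13.2, both below the background bound, so no fold is given.

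Markers of cell type and cell state differed between the same arrays. Pou5f1, the pluripotency factor Oct4, read 7837.8 and 2932. Of 8 ES cell markers all 8 were below 0 (median -1.08), against 50.0% of all genes above the filter. The summed signal of the ES cell markers was 51986 on the undifferentiated and 28947 on the day 15 array. ES cell transcripts were thus still present at day 15. All 7 proliferation markers were below 0 (median -0.86, summed signal 33150 and 17301). Fibroblast and matrix markers had summed signals of 5242.8 and 49315, endoderm markers 165.2 and 3488.7, and cardiac muscle markers 275.5 and 3744.7. Every measured gene of these lists was above 0. At least 2-fold higher were 7 of 8, 5 of 6 and 3 of 6, against 16.5% of all genes above the filter. Thy1 hardly differed (143.5 and 144.5). A sum follows its brightest probe sets, in the cardiac list Hand2 (1778.7 at day 15) and Tnnt2 (1229.3). Myh6 (84.9 and 108.9), Myh7 (54.5 and 90.1) and Nkx2-5 (51.2 and 75.1) were dim on both arrays. Of 5 neural markers 3 were above 0, all 3 at least 2-fold higher, with the largest difference in Ncam1 (131.1 and 1344.5). Tubb3 (617.7 and 258.9) and Pax6 (99.3 and 54.7) were lower. No marker in any list was listed at 0 on either array. In undifferentiated cells, however, 8 of the 40 markers were below the background bound of 35.6, namely Postn, Lum, Col1a1, Hand2, Tnnt2, Gata6, Ttr and Afp, so the undifferentiated sums of their lists include background signal. The part of these changes in the values of the ribosomal genes was not tested.

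Promoters of the members held several of the short sequences bound by factors of mitochondrial genes. RefSeq promoter windows of 300 bases, from 250 before to 50 after the start in build GRCm38.p6, were matched by symbol for 67 of the 76 members. Mrpl4, Mrpl13, Mrpl15, Mrpl19, Mrpl38, Mrpl54, Mrps28, Mrps34 and Mrps35 were not matched. The letters CCGGAAG, bound by ETS factors such as GABPA, were found on either strand in 25 of the 67 (37.3%), against 19.8% of 9688 genes above the filter and 9.93% of all 27025 genes with a window. AAGATGGC, the core of the YY1 site, was in 12 (17.9%, against 5.19% and 3.19%), and GCATGCGC, part of the NRF1 site, in 8 (11.9%, against 6.15% and 3.05%). The ETS and YY1 letters were in 34.1% and 14.6% of 41 Mrpl and in 42.3% and 23.1% of 26 Mrps promoters. The NRF1 letters were in 7 Mrpl promoters (17.1%) but in 1 Mrps promoter, that of Mrps18b (3.85%), below the share of genes above the filter. At least 1 of these 3 motifs was in 37 members (55.2%), against 28.2% of genes above the filter.

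Other searched letters were no more frequent in the members than in expressed genes. GGGCGG, bound by SP1, was in 50.7% of members and 69.2% of genes above the filter, the E-box CACGTG in 7.46% and 11.9%, and TATAAA in 7.46% and 8.86%. AAGATGGC and CCGGAAG can share the letters AAG, and no member had them overlapping in that way. Whether holding a motif bears on the log2 difference was not tested, and the medians are given side by side. The 12 members with AAGATGGC had a median log2 difference of -0.55 and the other 55 -0.41, the 25 with CCGGAAG had -0.41 and the other 42 -0.46, and the 8 with GCATGCGC had -0.26 and the other 59 -0.48. A match describes the letters in the window and is not a measured binding site.

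The promoters of 5 members are shown because they belong to the extremes of the family or to divergent gene pairs described next. They are given 5′ to 3′ on the strand of the gene, with every match to the searched ETS, YY1, NRF1, E-box and TATA letters, in either orientation, in capitals. Mrpl18 has the largest loss (chr17:12916042-12916341, minus strand), with 1 ETS match far from the start. Mrps27 (chr13:99344536-99344835, plus strand) has an ETS match before the start and a YY1 match just after it. Mrps12 (chr7:28741772-28742071, minus strand) has its ETS match at the start and a YY1 match near the far end. Mrps18b (chr17:35916391-35916690, minus strand) has 2 NRF1 matches and 1 ETS match. Mrpl33, with the largest gain (chr5:31613701-31614000, plus strand), has an NRF1 and an ETS match side by side at the start, the same motifs as Mrps18b, which was 1.97-fold lower.
Mrpl18: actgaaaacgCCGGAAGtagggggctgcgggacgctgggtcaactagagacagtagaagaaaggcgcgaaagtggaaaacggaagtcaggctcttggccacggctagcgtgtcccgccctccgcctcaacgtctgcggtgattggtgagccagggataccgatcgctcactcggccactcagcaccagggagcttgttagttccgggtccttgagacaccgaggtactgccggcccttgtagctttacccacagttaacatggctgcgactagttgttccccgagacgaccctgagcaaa
Mrps27: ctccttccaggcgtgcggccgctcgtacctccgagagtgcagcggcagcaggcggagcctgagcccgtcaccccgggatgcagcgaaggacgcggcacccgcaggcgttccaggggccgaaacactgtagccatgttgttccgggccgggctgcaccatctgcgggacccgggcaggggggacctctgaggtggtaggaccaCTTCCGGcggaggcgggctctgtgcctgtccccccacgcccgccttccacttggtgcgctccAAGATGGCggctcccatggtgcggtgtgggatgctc
Mrps12: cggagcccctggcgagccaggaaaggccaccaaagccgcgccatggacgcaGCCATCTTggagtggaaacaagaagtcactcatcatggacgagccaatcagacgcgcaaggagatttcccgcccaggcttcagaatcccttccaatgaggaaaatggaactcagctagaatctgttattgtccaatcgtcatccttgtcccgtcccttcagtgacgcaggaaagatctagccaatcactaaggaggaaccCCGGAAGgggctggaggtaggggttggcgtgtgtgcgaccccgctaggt
Mrps18b: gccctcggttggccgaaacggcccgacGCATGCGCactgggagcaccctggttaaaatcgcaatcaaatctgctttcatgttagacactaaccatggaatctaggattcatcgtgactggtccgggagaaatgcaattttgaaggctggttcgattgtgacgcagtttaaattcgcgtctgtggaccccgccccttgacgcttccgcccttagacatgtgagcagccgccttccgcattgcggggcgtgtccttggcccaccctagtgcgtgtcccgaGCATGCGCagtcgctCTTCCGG
Mrpl33: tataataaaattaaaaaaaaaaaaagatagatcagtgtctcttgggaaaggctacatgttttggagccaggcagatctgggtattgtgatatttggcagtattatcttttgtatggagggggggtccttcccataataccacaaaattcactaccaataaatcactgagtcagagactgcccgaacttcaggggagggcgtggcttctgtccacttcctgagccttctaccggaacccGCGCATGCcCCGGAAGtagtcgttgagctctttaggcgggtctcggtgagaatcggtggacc

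Many members share their promoter region with a gene on the other strand. A divergent neighbour, a gene that starts on the opposite strand at most 1000 bases upstream, was found for 25 of 67 members (37.3%), against 19.4% of the 9688 genes above the filter. Mrpl46 and Mrps11, 1 large and 1 small subunit gene, start 42 bases apart. Mrpl46 read 865.3 and 628.6 and Mrps11 500.7 and 364.8, with log2 differences of -0.45 and -0.44. Mrps12 starts 147 bases from Sars2, the mitochondrial seryl-tRNA synthetase gene, and both were lower, by -0.98 and -0.80. Mrps27 and Ptcd2, another pentatricopeptide repeat gene of mitochondria, start 108 bases apart and both were lower, Ptcd2 with signals of 887.8 and 436.4.

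Divergent neighbours of members were themselves mostly lower at day 15. In 21 pairs both genes lay above the filter, and in 18 of them both had the same direction (85.7%), 16 lower and 2 higher. Among 571 such pairs of all genes, 55.9% had the same direction and 35.2% were both lower. Since 86.8% of members were below 0, the shared direction in part restates that members were lower. Of the 20 neighbours that are not members, 17 were below 0 and 4 at least 2-fold lower, against 50.0% and 8.41% of all genes above the filter. At least 2-fold higher were 0, against 16.5%. The median of the 20 was -0.72, against -0.078 for all genes above the filter that have a divergent neighbour. Products of the members' neighbours act in varied processes. Twnk, beside Mrpl43, unwinds mitochondrial DNA. Hira, beside Mrpl40, is a histone chaperone and read 293.4 and 117.2. Eme1, beside Mrpl27, is a DNA repair endonuclease subunit and read 482.9 and 211.3. Ska3, beside Mrpl57, and Ncapd2, beside Mrpl51, act on mitotic chromosomes and read 617.5 and 312, and 1328.2 and 743.7.

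Not every pair had 1 direction. Mrpl27 (1585.5 and 1707.3) was slightly higher while Eme1, 48 bases away, was at least 2-fold lower, and Mrpl43 (1196.6 and 965.4) was less affected than Twnk. Mrps18b was lower while Ppp1r10, 756 bases away, was higher (64.5 and 119). Mrpl32 (1143.7 and 1184.6) and the proteasome gene Psma2 (4762.2 and 3914.7) also had opposite directions. Both genes were higher in the pairs Mrpl14 and Tmem63b (204.6 and 318.4) and Mrpl41 and Pnpla7 (79.7 and 85.4).

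**Figure D5:**
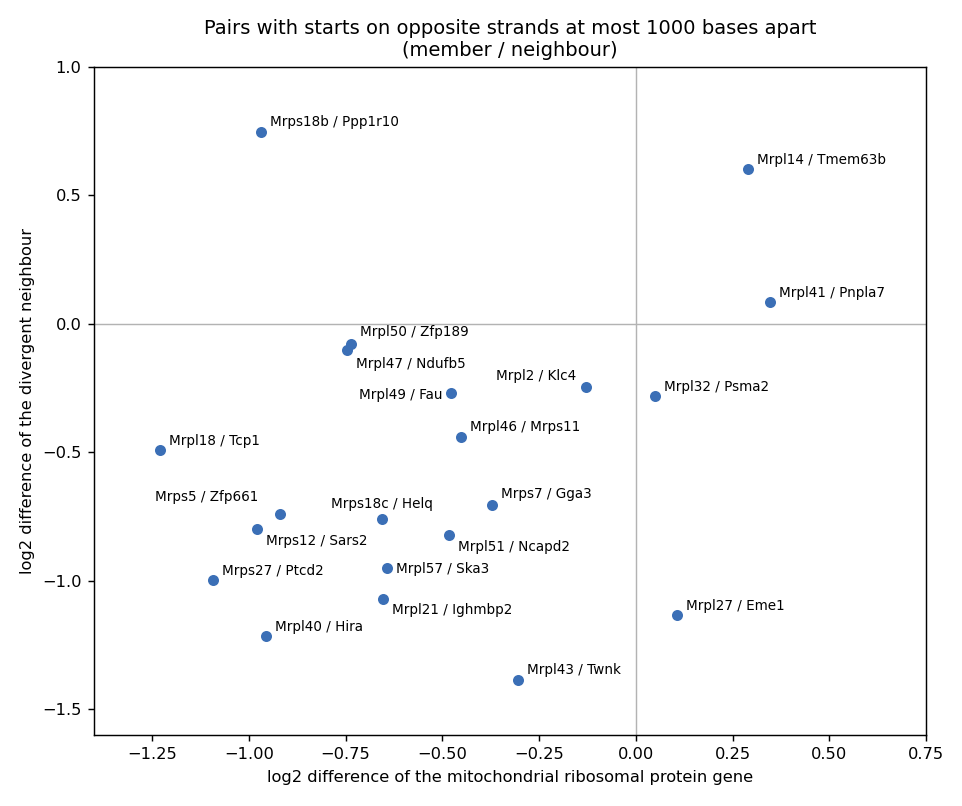
Log2 difference of each mitochondrial ribosomal protein gene against that of its divergent neighbour, for the 21 pairs with both genes above the filter, each labelled with the member first. The lower left region, with both genes below 0, holds 16 pairs, and Mrps18b with Ppp1r10 is alone in the upper left.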

How the data were processed

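Total RNA was hybridised as biotinylated cRNA to Affymetrix mouse arrays, 1 per condition, per the labels' protocols. The authors deposited 1 signal intensity per probe set on a linear scale, already scaled: after trimming 2% at either end, both arrays had a mean of 250. The summarising software is not given in the sources used here.

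Of 45101 probe sets, 64 controls were set aside. The platform annotation names 1 gene for 34945, several for 932 (not used for gene values) and does not list 9160. Symbols were updated through the RefSeq table of GRCm38.p6. A gene was represented by its single-gene probe set with the highest mean log2(signal + 16). The pseudocount damps differences of dim genes. The filter was the median of all probe sets, about 36.5 in signal. Differences, counts and medians were computed with pandas 2.3.3 and the code was tested on simulated data. The number of arrays limits the precision.

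The members and lists were chosen with earlier results of these data known, and the signal-range background and the divergent pairs were added after the data were seen. Named genes were the 10 most positive and 10 most negative members, members at least 2-fold, the 4 brightest and 4 dimmest (not discussed as such, since levels of different probe sets are not comparable), the role lists, Mrps symbols outside the small subunit, members with probe sets of both directions, regulators, subunits with other names marker genes and up to 4 of each other list. Others, divergent neighbours included, were chosen after their values were seen.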

Additional observations from a re-analysis of the deposited data

How the results depend on the processing

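The medians of the members stayed below 0 under all 10 alternatives tried. Of 192 recomputed medians, gaps and counts, 174 stayed within the interval of the main median over genes (binomial order statistics, 95%) or within 1.5 times the main count. That number includes outcomes fixed in advance. All 76 members passed every filter tried, so a change of filter could not move their own values. The 34 members with 1 probe set could not move with the choice among probe sets. The interval describes the spread over genes and not between cultures. Scaling on the hybridization controls shifts every gene. It moved the median of all members to -0.86, of Mrpl to -0.87, of Mrps to -0.81 and of assembly factors to -0.75. The median became -0.96 for the transcription, RNA processing and DNA replication list, -0.52 for cytosolic ribosomal proteins and -0.43 for OXPHOS subunits. Members at least 2-fold lower were then 29, at least 1.5-fold lower 56 and at least 1.5-fold higher 0. Quantile normalization gave 3 members at least 2-fold lower, a median of -0.053 for cytosolic ribosomal proteins and 0.067 for OXPHOS subunits. The members' median minus that of all genes was -0.47, and became -0.35 with quantile normalization, -0.36 when only genes above the 75th percentile were kept and -0.30 against genes in the members' signal range. The mean over probe sets left 0 members at least 1.5-fold higher. Dropping the probe sets whose suffix is a, s or x left 61 members and moved the cytosolic median to -0.28. The probe set with the lowest mean above the filter turned Mrpl34 to 0.31, where the undifferentiated signal is below background, so no direction is read from it. Of 745 values of single members, including those that could not move, 732 moved by less than 0.53, the SD between probe sets over all genes. By less than 0.34, the same SD over members, moved 647. Of the 98 others, 76 came from scaling on the hybridization controls, which moved every member. No paired analysis was possible because each condition has 1 array. Signals below 35.6, the brightest of the controls assumed to have no target, were taken as not distinct from background. All members' representative probe sets lay above this bound on both arrays.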

Other observations

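Mrpl30 and Mrpl53, which did not enter the counts, are named together with another gene on their probe sets. The brighter probe set of Mrpl30 and the pseudogene Gm6238 read 2880.3 in undifferentiated cells and 3010.6 at day 15, a log2 difference of 0.063. The probe set of Mrpl53 and Ccdc142 read 872.5 and 957, a log2 difference of 0.13. A probe set shared by Mrps34 and Nme3 read 336.2 and 285.6, a log2 difference of -0.22, while the probe set of Mrps34 alone had -1.07.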
